A study of Homo sapiens with 3 samples.

Results

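A set of 7 transcription and lineage genes of prostate epithelium was followed across 3 lines of PC3-Luc cells: GATA2, GATA3, FOXA1, FOXA2, TMPRSS2, GRHL2 and SOX9. They were found by gene symbol, and all 7 had a row among the 21726 genes of the count table. The members were chosen by their counts in these same 9 libraries, with the differences between the lines already known, so every comparison of a member below is a description of these libraries and carries no p-value. PC3 cells derive from the bone metastasis of a prostate carcinoma and grow without androgen; the PC3-Luc derivative also expresses luciferase from an MSCV vector. The control line carries a control hairpin, and the lines sh718 and sh720 carry different short hairpins against CTHRC1, a secreted glycoprotein studied here for its part in bone metastasis. All 3 lines share the luciferase construct, and RNA was taken after 24 h in culture. Whether a line is a clone or a pool of cells is not stated in the sources used here.

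GATA2 and GATA3 are zinc finger factors that bind GATA motifs. FOXA1 and FOXA2 are forkhead factors that can bind closed chromatin. In luminal prostate cells FOXA1 and GATA2 open and occupy enhancers of luminal genes, among them TMPRSS2, which encodes a membrane serine protease. FOXA2 is better known from endoderm and from neuroendocrine prostate tumours. GRHL2 is a grainyhead factor that maintains epithelial junction genes, and SOX9 is a factor of prostate budding and progenitor cells.

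Each line had 3 libraries, with totals of 883663 to 1108960 counts, so that 1 count is close to 1 CPM (counts scaled to a common library size, with TMM factors). GEO lists 1 sample per line, and nothing in the sources used here says that the libraries came from separate cultures, so the tests measure only the spread between libraries. The targeted gene CTHRC1 stood at 88, 117 and 126 counts in the control libraries, 2, 2 and 1 in sh718 and 18, 19 and 10 in sh720. Of 4 simple epithelial markers, KRT18 stood at 634 to 740 CPM as line means and KRT8 at 196 to 276, whereas EPCAM stood at 37.8, 14.4 and 40.4 CPM in control, sh718 and sh720 and CDH1 had 6, 1 and 8 counts. The prostate factor HOXB13 stood at 226 to 267 CPM. ACPP, which encodes prostatic acid phosphatase, had 1 count in all. Basal, neuroendocrine and fibroblast markers summed to at most 1.13, 1.13 and 6.79 CPM in any library.

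GATA2 (ENSG00000179348, GRCh38 chromosome 3, 128479427 to 128493185, minus strand) has 2 start sites among the RefSeq promoters (GRCh38.p14), 4671 bp apart. A long non-coding gene, GATA2-AS1 (ENSG00000244300, 128489212 to 128502348, plus strand), starts 673 bp from the inner GATA2 start and runs the other way. From the inner start the 2 genes diverge, whereas from the outer start, 3998 bp from that of GATA2-AS1, they overlap. Which GATA2 start these cells use was not tested. The 250 bases upstream of each of these starts, and of the first GATA3 start, are shown because GATA2, GATA2-AS1 and GATA3 all had few counts in sh718. They read 5′ to 3′ in the direction of the gene, and capitals mark the motif matches described after them.

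GATA2 outer start, chr3:128493202-128493451, minus strand: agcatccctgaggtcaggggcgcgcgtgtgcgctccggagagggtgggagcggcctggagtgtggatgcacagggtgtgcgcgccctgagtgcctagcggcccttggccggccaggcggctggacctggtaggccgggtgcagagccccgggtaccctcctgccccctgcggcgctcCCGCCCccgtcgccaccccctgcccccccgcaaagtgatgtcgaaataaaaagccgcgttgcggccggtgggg
GATA2 inner start, chr3:128488531-128488780, minus strand: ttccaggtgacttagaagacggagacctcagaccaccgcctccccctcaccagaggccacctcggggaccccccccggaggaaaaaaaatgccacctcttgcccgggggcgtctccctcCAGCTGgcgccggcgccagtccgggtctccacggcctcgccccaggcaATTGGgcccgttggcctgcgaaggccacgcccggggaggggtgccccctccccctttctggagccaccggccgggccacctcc
GATA2-AS1 start, chr3:128488953-128489202, plus strand: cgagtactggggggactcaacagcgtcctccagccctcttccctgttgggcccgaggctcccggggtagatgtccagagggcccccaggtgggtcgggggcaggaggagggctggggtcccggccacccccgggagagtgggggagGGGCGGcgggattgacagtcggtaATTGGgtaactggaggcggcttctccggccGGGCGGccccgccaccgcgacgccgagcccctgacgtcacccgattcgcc
GATA3 first start, chr10:8045083-8045332, plus strand: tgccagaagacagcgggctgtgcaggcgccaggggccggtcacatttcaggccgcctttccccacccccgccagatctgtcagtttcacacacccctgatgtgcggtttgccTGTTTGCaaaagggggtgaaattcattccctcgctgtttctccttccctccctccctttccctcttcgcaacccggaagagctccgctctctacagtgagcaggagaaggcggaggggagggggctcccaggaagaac

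Both strands were searched for 7 motifs. The GC box GGGCGG, which occurs in 42.6% of 35116 RefSeq promoter windows of this length, was present upstream of the outer GATA2 start and of GATA2-AS1. The CCAAT box, written CCAAT and present in 32% of windows, occurred upstream of the inner GATA2 start and of GATA2-AS1. The forkhead motif TGTTTNC, present in 15.5% of windows, occurred upstream of the first GATA3 start. The E-box CAGCTG, present in 14% of windows, occurred upstream of the inner GATA2 start. None of the 4 windows held AGATAA or TGATAA, letters bound by GATA factors and present in 9.17% and 6.66% of windows, or TATAAA, present in 10.7%. The GATA2 windows were rich in G and C, at 72.8% and 71.2% against a median of 58% over all windows. Further GATA3 starts had promoter entries too, and their windows are not shown. Matches to the GC box, the CCAAT box, the E-box and TATAAA occurred among those windows. FOXA1 also had a promoter entry, in which the forkhead motif and the GC box occurred, and FOXA2, TMPRSS2, GRHL2 and SOX9 did not. All these matches are letters in a window and do not show binding.

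**Figure D1:**
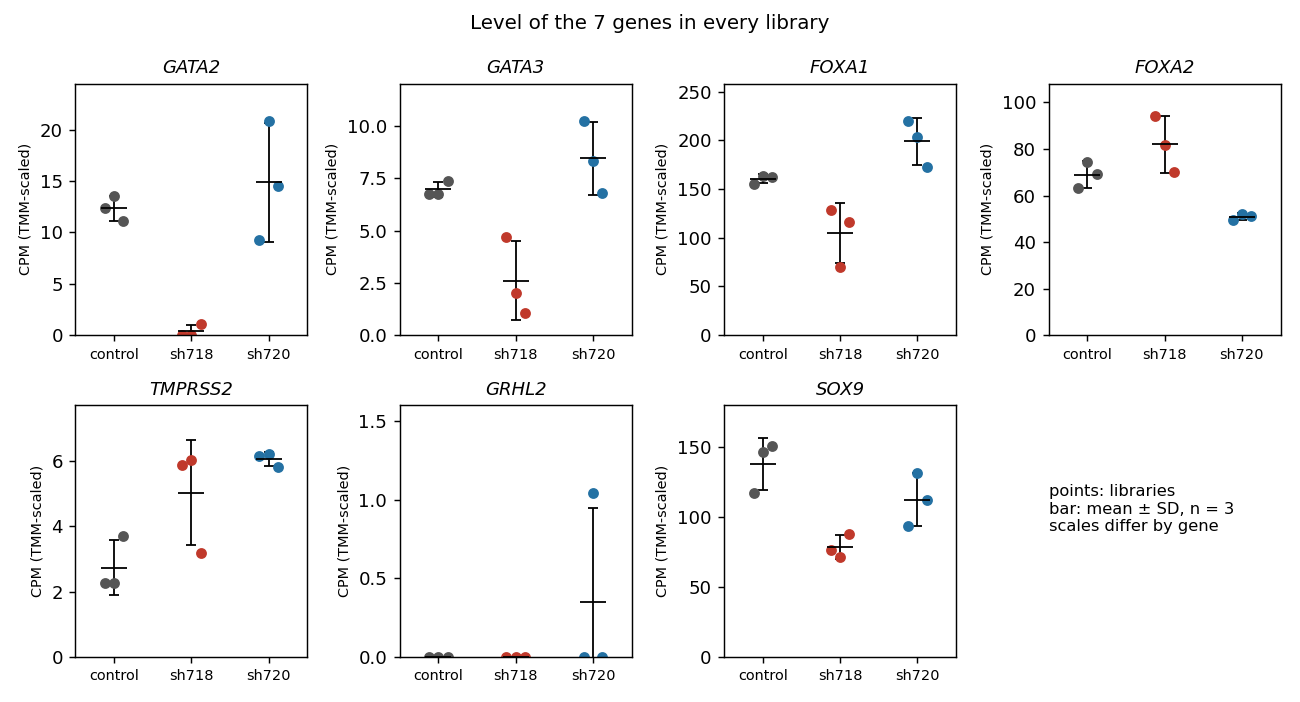
Level of each gene (y axis, TMM-scaled CPM, each panel on its own scale from 0) in the control, sh718 and sh720 lines. Points are libraries and bars the mean ± SD of 3, cut at 0. GATA2 is at 0, 0 and 1.06 CPM in sh718 and at 9.25 CPM or more in every other library.

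GATA2 was almost absent from the sh718 line and present in both others. Its counts were 11, 12 and 12 in the control libraries, 0, 0 and 1 in sh718, and 9, 20 and 15 in sh720. As levels these were 12.3 ± 1.22 CPM in control (SD, n = 3) and 14.9 ± 5.78 CPM in sh720, whereas the single sh718 count came to 1.06 CPM in its library. No sh718 library reached the lowest library of either other line, and the control and sh720 libraries overlapped. Over summed counts of 35 and 1, the control level was 34.1 times that of sh718, with an exact 95% interval of 5.74 to 1386. The sh720 level, from 44 counts, was 41.3 times that of sh718 (7.04 to 1668). The ratio of sh720 to control was 1.21 (0.759 to 1.94). Both ratios to sh718 rest on the 1 count in sh718 library 3: without that library the sh718 sum is 0. These intervals cover counting error only. Fewer cells with the transcript and less of it per cell cannot be told apart in these bulk libraries.

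The opposite-strand gene GATA2-AS1, looked at after its values were seen, was also lowest in sh718. It had 3, 12 and 6 counts in the control libraries, 1, 0 and 0 in sh718 and 2, 8 and 7 in sh720. Each sh718 library lay below every control and sh720 library. From summed counts of 21 and 1, the control level was 20.5 times that of sh718 (3.29 to 847). The genes overlap over 3974 bp but share 0 annotated exon bases, and how reads were assigned to strands is not stated in the sources used here.

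The tested genes nearest to GATA2 were not called lower in sh718. Of the 10 nearest tested genes, 5 on each side between positions 127672935 and 129183922 of chromosome 3, none was lower in sh718 by edgeR's test and 3 were higher. These were MGLL, a monoglyceride lipase gene (162 ± 17.8 to 311 ± 27.1 CPM, log2 0.95, SE 0.10, edgeR adjusted p 1.37e-11), SEC61A1, which encodes a translocon subunit (log2 0.48, SE 0.11, adjusted p 4.16e-04), and ABTB1 (log2 1.27, SE 0.35, adjusted p 0.00546). The nearest on either side, EEFSEC and RPN1, lay at log2 0.66 and -0.16 without a call. The median of the 10 was 0.19 in sh718 and 0.07 in sh720. Over all tested genes 9.56% were called higher and 10.8% lower in sh718. The neighbour counts were not tested against these shares. Among the 20 nearest tested genes, 10 on each side, 5 were called higher and 1 lower in sh718. The lower one was HMCES, named after its value was seen, which encodes a DNA repair protein (log2 -1.14, SE 0.28, edgeR adjusted p 0.00148).

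**Figure D2:**
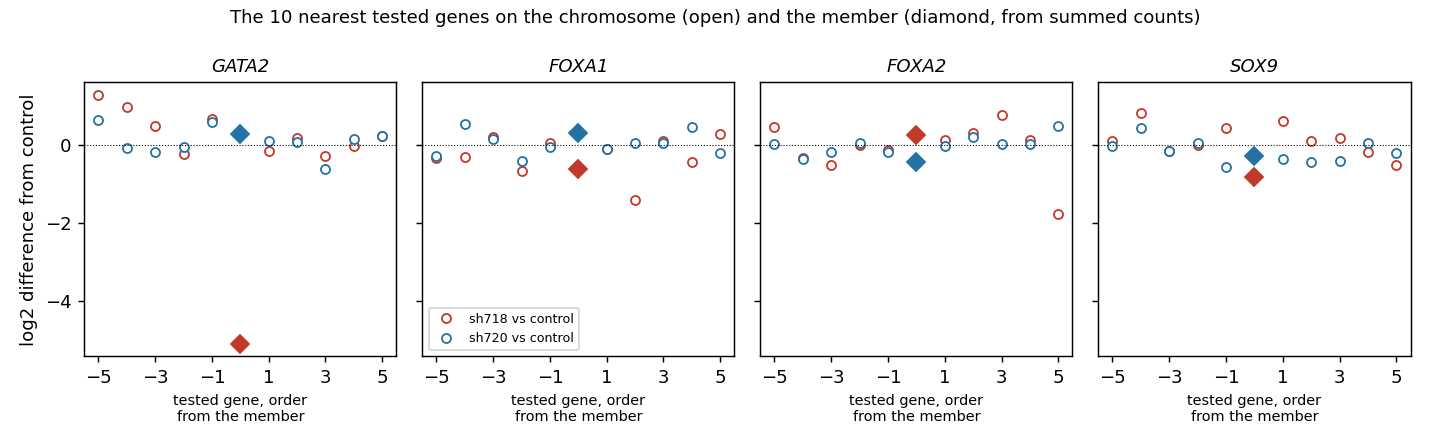
Log2 difference from control (y axis) of the 10 nearest tested genes on the chromosome, by their order from the member (x axis), in sh718 (red) and sh720 (blue). Open circles are edgeR values of the neighbours, and diamonds are ratios of summed counts of the member at position 0. The red GATA2 diamond lies far below its neighbours, which run from -0.28 to 1.27.

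GATA3, the GATA factor of luminal breast and T cells, was scarce in all 3 lines and lowest in sh718. Its counts were 6, 6 and 8 in control, 4, 2 and 1 in sh718 and 10, 8 and 7 in sh720. Every sh718 library lay below every other library, while control and sh720 overlapped. With 52 counts in all, too few for the count minimum, it did not enter the test. The control level was 2.79 times that of sh718 by summed counts of 20 and 7 (1.13 to 7.80), and the sh720 level, from 25 counts, 3.35 times (1.41 to 9.18). In a fit with no count minimum its log2 change was -1.44 in sh718 (SE 0.59) and 0.26 in sh720 (SE 0.44). Its antisense gene GATA3-AS1 had 2 counts in all, both in sh720.

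FOXA1 was lower in sh718 and somewhat higher in sh720. Its counts were 138, 145 and 176 in control, 109, 69 and 110 in sh718 and 214, 196 and 178 in sh720. The levels were 161 ± 4.50, 105 ± 31.2 and 199 ± 24.0 CPM (SD, n = 3). Every sh718 library lay below, and every sh720 library above, all control libraries. The log2 change was -0.63 in sh718 (SE 0.13, 95% interval -0.90 to -0.36), or -0.39 without sh718 library 2, which held the lowest level at 69.5 CPM. It was 0.30 in sh720 (SE 0.12, 0.07 to 0.54), which did not pass the threshold of an adjusted p of 0.05 over all genes. Between the hairpin lines it was -0.93 (SE 0.13, -1.19 to -0.68). TTC6, which lies on the other strand and shares 16 exon bases with FOXA1, had 21 counts in control, 10 in sh718 and 13 in sh720. Of the 10 tested genes nearest to FOXA1, GEMIN2 alone was called in sh718 against control. It was lower (log2 -1.41, SE 0.33, edgeR adjusted p 8.02e-04), and the median of the 10 was -0.22. Over all tested genes 10.8% were called lower there.

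FOXA2 had the opposite order. Its counts were 56, 66 and 75 in control, 80, 81 and 66 in sh718 and 48, 50 and 53 in sh720. The levels were 69.0 ± 5.70, 82.0 ± 12.2 and 50.9 ± 1.40 CPM. The sh718 and control libraries overlapped, whereas every sh720 library lay below all others. The log2 change was 0.24 in sh718 (SE 0.15, -0.05 to 0.53) and -0.44 in sh720 (SE 0.16, -0.75 to -0.12), neither past the threshold, and 0.68 between sh718 and sh720 (SE 0.15, 0.37 to 0.99). LINC00261, a long non-coding gene whose start lies 6813 bp from that of FOXA2, had 244, 217 and 222 summed counts in control, sh718 and sh720, and changes of -0.13 and -0.19 that edgeR did not call. Of the 10 tested genes nearest to FOXA2, only CST1 was called in sh718 against control. It was lower, from 22 to 6 summed counts (log2 -1.78, SE 0.57, edgeR adjusted p 0.0192), and the median of the 10 was 0.05. Over all tested genes 10.8% were called lower there.

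The balance of the FOXA factors differed from line to line. FOXA1 had 2.20 to 2.46 counts for each FOXA2 count in the control libraries, 0.852 to 1.67 in sh718 and 3.36 to 4.46 in sh720. The ranges of the 3 lines did not overlap. Per kb of exon the ratios were 1.44 to 1.61, 0.557 to 1.09 and 2.20 to 2.91, so FOXA2 exceeded FOXA1 in 2 of 3 sh718 libraries and in no other library. This ratio was formed after the values were seen.

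**Figure D3:**
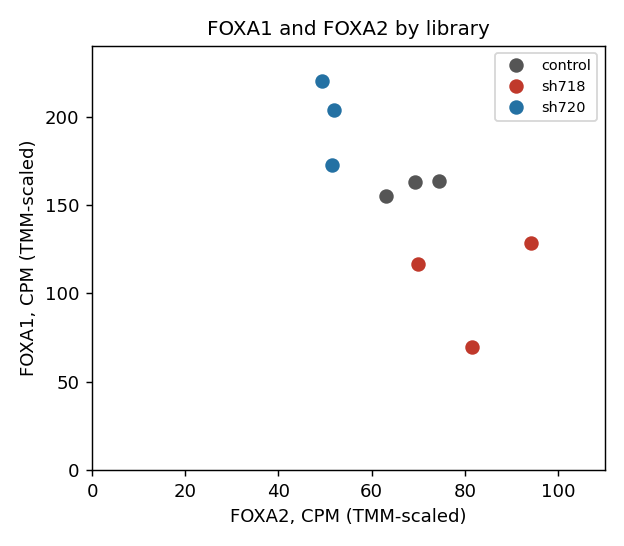
FOXA1 (y axis) against FOXA2 (x axis) in TMM-scaled CPM, with 1 point per library. The sh720 libraries lie at the upper left, with FOXA1 at 173 CPM or more, and the sh718 libraries lie below all others on the FOXA1 axis.

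SOX9 was lower in sh718. Its counts were 104, 130 and 163 in control, 65, 71 and 83 in sh718 and 91, 127 and 116 in sh720. The levels were 138 ± 18.4, 78.7 ± 8.41 and 113 ± 19.3 CPM. Every sh718 library lay below all other libraries, and the control and sh720 libraries overlapped. The log2 change was -0.82 in sh718 (SE 0.14, 95% interval -1.09 to -0.55) and -0.30 in sh720 (SE 0.13, -0.55 to -0.05), the latter not past the threshold. Between sh718 and sh720 it was -0.52 (SE 0.14, -0.80 to -0.24), past the threshold with all libraries and not past it without sh720 library 2, at -0.40, or with DESeq2, at -0.51. SOX9-AS1, whose body spans SOX9, had 4 counts in all.

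TMPRSS2 and GRHL2 were near the limit of detection. TMPRSS2 had 2, 2 and 4 counts in control, 5, 6 and 3 in sh718 and 6, 6 and 6 in sh720. The sh718 and control libraries overlapped, and the sh720 libraries lay above the control ones. By summed counts of 8, 14 and 18 the ratio to control was 1.80 in sh718 (0.703 to 4.94) and 2.17 in sh720 (0.896 to 5.76), so that both intervals include no difference. GRHL2 had a single count, in sh720 library 2. Its count of 0 in the control and sh718 lines allows a level of up to 1.05 and 1.08 CPM, set by 3 counts over each line.

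**Figure D4:**
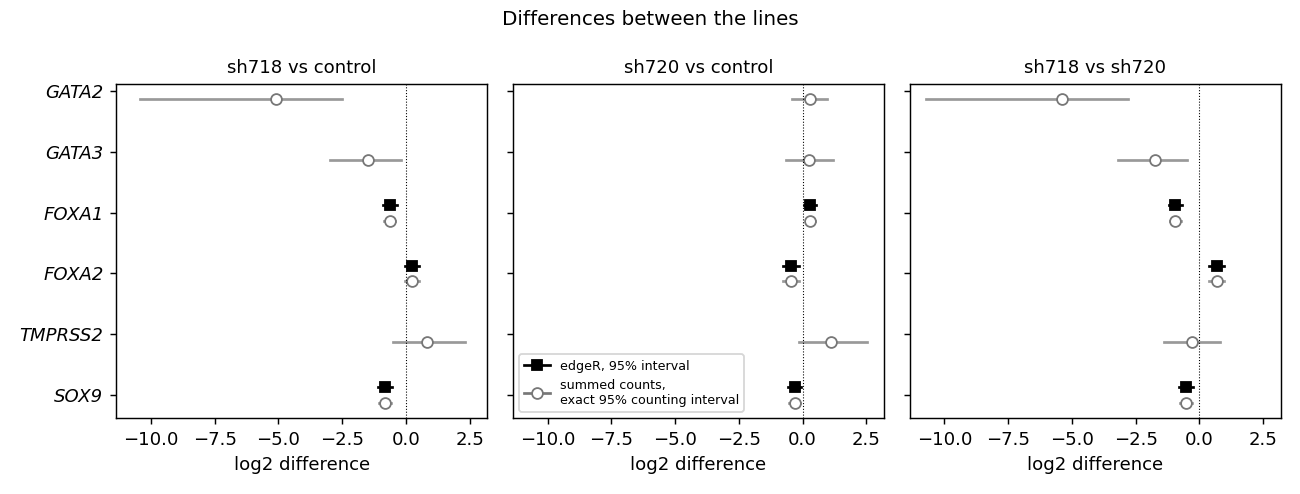
Log2 difference (x axis) of the members between sh718 and control, sh720 and control, and the hairpin lines. Black squares are edgeR estimates with 95% intervals, and open circles are ratios of summed counts with exact 95% intervals for counting error. GATA2 is shown by summed counts, and its sh718 intervals lie wholly below 0. GRHL2 has no ratio.

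Relative to exon length, FOXA1, SOX9 and FOXA2 were well expressed and the others were not. In control libraries FOXA1 stood at 39.0 to 41.1 CPM per kb of annotated exon, SOX9 at 29.8 to 38.3 and FOXA2 at 24.2 to 28.6, and these ranges did not overlap. GATA2 followed at 2.49 to 3.03 CPM per kb, GATA3 at 1.97 to 2.15 and TMPRSS2 at 0.368 to 0.605. FOXA1 lay at the 87.8th percentile of the tested genes, SOX9 at the 85.9th, FOXA2 at the 82.2nd and GATA2 at the 23.3rd. In sh718 the order at the top changed: FOXA2 stood at 26.9 to 36.2 CPM per kb, FOXA1 at 17.5 to 32.2 and SOX9 at 18.2 to 22.4, with neighbouring ranges overlapping. In sh720 FOXA1 stood at 43.4 to 55.2, SOX9 at 23.8 to 33.6 and FOXA2 at 18.9 to 19.97 CPM per kb. These levels assume even coverage along each transcript, and the library kit is not stated in the sources used here.

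Of the 4 members that met the count minimum, 3 were past the threshold in sh718 against control, all lower: GATA2, FOXA1 and SOX9. GATA2 met the minimum only through the control and sh720 lines, so it had to differ. Over all 9556 tested genes 20.4% passed there, 9.56% higher and 10.8% lower. None of the 4 passed in sh720 against control, where 6.85% of all genes did, 3.43% higher and 3.42% lower. All 4 passed in sh718 against sh720, FOXA2 higher and the others lower in sh718, where 25.3% of all genes did, 12.3% higher and 13% lower. Libraries of sh718 and control did not overlap for 3 of the 4 tested members, all lower, against 33.5% of all tested genes (17.1% lower). Between sh720 and control this held for 2 of the 4, FOXA1 higher and FOXA2 lower, against 23.5% (11.6% higher, 11.9% lower), and between the hairpin lines for all 4, against 37% (18.2% higher, 18.8% lower). The rule used these comparisons, so the counts are given without a reading. The comparisons against control share the control libraries.

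The genes whose level followed GATA2 most closely over the 9 libraries were GNAS, BHLHE41, TMEM128, CKB and CEMIP2, with Pearson r of 0.981 to 0.983 on log2 CPM. They were picked for this pattern, so their levels are a description, and 249 tested genes had an r over 0.9. BHLHE41, a clock-related basic helix-loop-helix repressor, averaged 125 CPM in control, 20.4 in sh718 and 172 in sh720. CKB, the brain-type creatine kinase gene, averaged 102, 31.3 and 125 CPM. GNAS, which encodes the stimulatory G protein alpha subunit, moved little, from 2081 in control to 1700 CPM in sh718. The genes with the most opposite pattern were KRT81, AKAP12 and FAM43A, at r of -0.979 to -0.976. FAM43A averaged 95.02 CPM in control, 291 in sh718 and 77.1 in sh720. All points share 3 lines, and GATA2 contributes few counts. With a smaller prior count of 0.5 only 1 of the 5 closest genes stayed among them.

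Other genes of these families and programmes were examined in 11 lists, of which 124 distinct genes met the count minimum. In sh718, edgeR called 14 of them higher and 19 lower (26.6%, against 20.4% of all tested genes), with a median log2 change of 0.04 against 0.00 for all genes. In sh720 it called 6 higher and 4 lower (8.06% against 6.85%), with a median of 0.04 against 0.00. These shares were not tested against those of all genes, and calls went both ways.

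Of 10 tested genes among other GATA family genes and cofactors, none was higher and 2 were lower in sh718 (median -0.03). Over all tested genes 20.4% were called there, 9.56% higher and 10.8% lower. None of the 10 was called in sh720 (median 0.16), beside 6.85% of all genes. LMO4, an adaptor of LIM-domain complexes, changed by log2 -0.43 (SE 0.15, edgeR adjusted p 0.0258) and its partner LDB1 by -1.25 (SE 0.43, adjusted p 0.0298). Both calls were weak: LDB1 was missed without control library 1 or 3 or any sh718 library, and LMO4 without control library 2 or sh718 library 1 or 3 (adjusted p 0.0507 to 0.143). DESeq2 missed LDB1 and LMO4 too (adjusted p 0.212 and 0.182). GATAD2B, a subunit of the NuRD complex, lay at 83.4 ± 4.11, 84.6 ± 8.85 and 83.5 ± 4.17 CPM in control, sh718 and sh720.

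Among forkhead genes other than the FOXA members, 2 of 11 tested were lower in sh718 and none was called in sh720 (medians 0.12 and 0.02). Beside this, 10.8% of all tested genes were lower in sh718 and 6.85% were called in sh720. FOXK1, a regulator of metabolism and autophagy genes, fell from 51.2 ± 8.66 to 22.7 ± 3.45 CPM (log2 -1.19, SE 0.21, edgeR adjusted p 1.26e-05). FOXP1, a repressor found in many epithelia, fell from 196.5 ± 16.5 to 131 ± 11.7 CPM (log2 -0.58, SE 0.11, adjusted p 4.21e-05). In sh720 they lay at -0.31 and 0.15 without a call. FOXL1 lay at 0.15 and -0.37, also uncalled.

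Calls in the SOX family went both ways. SOX7, an endothelial and endodermal SOX factor, rose in sh718 from 43.8 ± 4.35 to 86.5 ± 6.31 CPM (log2 0.97, SE 0.16, edgeR adjusted p 1.76e-06). In sh720 it fell to 26.6 ± 4.66 CPM (log2 -0.72, SE 0.20, adjusted p 0.0151), a call missed without control library 3 or sh720 library 2 or 3 (adjusted p 0.0716 to 0.102). SOX4, which is widely expressed in carcinomas, fell in sh720 from 346 ± 23.5 to 226 ± 17.6 CPM (log2 -0.62, SE 0.09, adjusted p 2.94e-07) and lay at 0.09 in sh718. SOX12 changed by -0.41 in sh718 (adjusted p 0.0203), missed without control library 2 or 3 or sh718 library 3 (0.0806 to 0.106). The list had 5 tested genes, with 1 call up and 1 down in sh718 and 2 down in sh720 (medians 0.09 and -0.06). With so few genes, these counts were not set against the shares of all tested genes, 20.4% in sh718 and 6.85% in sh720.

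The grainyhead and epithelial regulators were mixed. Of 11 tested, 2 rose and 2 fell in sh718 and none was called in sh720 (medians 0.04 and 0.20). The shares called over all tested genes were 20.4% and 6.85%. ELF3, an epithelial ETS factor, rose from 31.8 ± 2.28 to 57.2 ± 6.12 CPM in sh718 (log2 0.84, SE 0.19, edgeR adjusted p 4.57e-04). TFAP2C, an AP-2 factor, fell from 171 ± 16.9 to 108 ± 11.3 CPM (log2 -0.65, SE 0.12, adjusted p 2.33e-05). KLF4 changed by -0.83 (adjusted p 0.0108) and ZEB1, a repressor of epithelial genes, by 0.59 (adjusted p 0.0228). KLF4 was missed without control library 3 or sh718 library 1, and ZEB1 without control library 3 or sh718 library 1 or 3 (0.0638 to 0.0993). KLF5, the most counted member, lay at -0.23 and 0.10, uncalled.

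Genes known as grainyhead targets also differed among themselves, although GRHL2 itself had 1 count. EPCAM, an epithelial adhesion molecule, fell in sh718 from 37.8 ± 7.35 to 14.4 ± 1.41 CPM (log2 -1.39, SE 0.26, edgeR adjusted p 2.41e-05) and lay at 0.10 in sh720. DSP, the desmoplakin gene, fell by 0.63 on the log2 scale in sh718 (SE 0.14, adjusted p 6.47e-04), and SPINT1, which encodes an inhibitor of membrane serine proteases, by 1.45 (SE 0.44, adjusted p 0.0113). The tight junction gene CLDN4 changed by 0.28 in sh718 (adjusted p 0.0255) and in the other direction, by -0.40, in sh720 (adjusted p 0.00446). Its sh718 call was missed without control library 2 or 3 or sh718 library 2 or 3, and its sh720 call without control library 1 or sh720 library 3 (0.0604 to 0.230). MAL2, a transcytosis gene, rose in sh720 from 779 ± 43.4 to 1098 ± 88.2 CPM (log2 0.50, SE 0.07, adjusted p 1.19e-07). The 11 tested targets gave 1 call up and 3 down in sh718, against 1 up and 1 down in sh720 (medians 0.03 and -0.18). Beside these stood 20.4% and 6.85% of all tested genes called.

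Of 15 tested luminal prostate genes, 1 rose and 2 fell in sh718, beside 20.4% of all tested genes called there. None was called in sh720, beside 6.85% of all genes (medians -0.09 and -0.12). HOXB13, the homeobox factor that marks prostate cells, lay at 267 ± 21.8, 237 ± 6.51 and 226 ± 3.54 CPM in control, sh718 and sh720, and ELL2 at 66.6 ± 13.8, 69.0 ± 9.21 and 81.8 ± 8.12 CPM. NDRG1, a stress- and androgen-responsive gene, rose by 1.24 in sh718 (SE 0.34, edgeR adjusted p 0.00506, or 0.0568 without control library 2). ABCC4, a transporter gene, fell by 0.77 (SE 0.22, adjusted p 0.00818). CENPN changed by -0.81 (adjusted p 0.0365) and was missed without control library 1 or 2 or sh718 library 1 or 2 (0.0940 to 0.166).

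Coregulators of nuclear receptors, which serve many other factors, had 28 tested genes. Of these 6 rose and 2 fell in sh718, where 9.56% of all tested genes were called higher and 10.8% lower. The medians were 0.17 in sh718 and 0.03 in sh720. SMARCA4, an ATPase of SWI/SNF remodelling complexes, rose in sh718 from 220 ± 2.58 to 310.1 ± 30.0 CPM (log2 0.49, SE 0.10, edgeR adjusted p 6.36e-05). CDK7, the kinase of TFIIH, fell by 0.98 on the log2 scale in sh718 (SE 0.23, adjusted p 7.01e-04), and MED14 by 0.56 (SE 0.17, adjusted p 0.0125, or 0.0661 without sh718 library 2). UBE2C lay at 0.09 and -0.03.

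Among the membrane serine proteases related to TMPRSS2, their inhibitors and receptors, 3 of 9 tested genes fell and none rose in sh718, and 1 rose in sh720 (medians -0.35 and 0.22). Over all tested genes, 10.8% fell and 9.56% rose in sh718, and 3.43% rose in sh720. F2RL1, which encodes the protease-activated receptor PAR2, fell in sh718 from 162 ± 15.2 to 55.9 ± 6.62 CPM (log2 -1.52, SE 0.14, edgeR adjusted p 2.17e-14) and lay at 188 ± 15.9 CPM in sh720 (log2 0.21, uncalled). F2R, which encodes the thrombin receptor PAR1, rose in sh720 from 85.6 ± 6.98 to 137 ± 11.96 CPM (log2 0.67, SE 0.12, adjusted p 6.21e-05) whereas its sh718 change of -0.38 was not called (adjusted p 0.0557). SERPINB5, the maspin gene, fell by 0.77 on the log2 scale in sh718 (SE 0.19, adjusted p 0.00191), as did SPINT1, which also stands in the grainyhead list. PRSS3 and MET, the most counted members, lay at 0.17 and -0.07 in sh718 and -0.14 and 0.22 in sh720, uncalled.

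ETS factors, some of which are fused to TMPRSS2 in prostate cancer, had 15 tested genes, with 1 lower in sh718 and 2 higher in sh720 (medians -0.09 and 0.00). Calls in these directions covered 10.8% and 3.43% of all tested genes. ELK4 fell in sh718 from 50.4 ± 8.57 to 26.6 ± 1.47 CPM (log2 -0.93, SE 0.20, edgeR adjusted p 3.33e-04). ETV1 rose in sh720 from 74.7 ± 3.71 to 105 ± 6.46 CPM (log2 0.50, SE 0.13, adjusted p 0.00945, missed without control library 3 or sh720 library 3 at 0.0527 and 0.0671). ETV5 changed by 0.41 (adjusted p 0.0223), missed without control library 1 or 2 or sh720 library 1 or 2 (0.0716 to 0.147). ETV4 lay at -0.04 and 0.05.

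Endoderm and gut factors, the setting in which FOXA2 is best known, included a gene lower in both hairpin lines. NR2F1, which encodes the orphan nuclear receptor COUP-TFI, fell from 351 ± 5.99 CPM in control to 156 ± 1.30 in sh718 (log2 -1.17, SE 0.09, edgeR adjusted p 2.09e-16). The sh720 libraries averaged 255 ± 12.6 CPM (log2 -0.46, SE 0.09, adjusted p 7.53e-05). GLIS3, a zinc finger factor of endocrine pancreas, rose by 1.06 in sh718 (SE 0.27, adjusted p 0.00198). Its rise of 0.86 in sh720 (SE 0.27, adjusted p 0.0383) was missed without control library 1 or 2 or sh720 library 2 or 3 (0.0820 to 0.304). NR2F6 changed by 0.40 in sh718 (adjusted p 0.0194), missed without control library 1 or 3 or sh718 library 1 (0.0669 to 0.134). The 8 tested factors gave 3 calls up and 2 down in sh718, against 1 up and 1 down in sh720 (medians 0.23 and -0.04). Among all tested genes 20.4% and 6.85% were called, and the difference from these shares was not tested. Of 20 chondrocyte and cartilage genes, not all of them known SOX9 targets, 2 were tested, SNORC and PTHLH. Neither was called against control in either line. Between the hairpin lines SNORC was higher in sh718 (log2 0.84, edgeR adjusted p 0.0176), and PTHLH was uncalled.

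**Figure D5:**
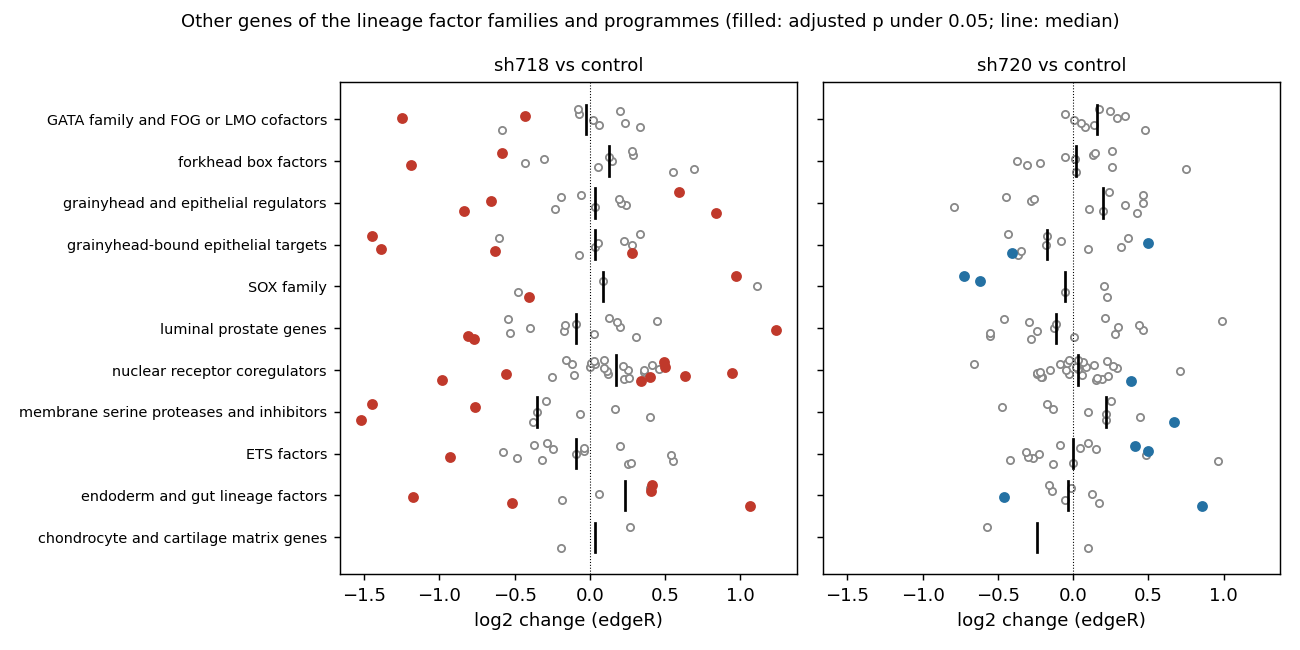
Log2 change against control (x axis, edgeR) of the tested genes of 11 lists (rows) in sh718 and sh720. Filled points have an adjusted p under 0.05, open points do not, and vertical lines are list medians. Filled points lie on both sides of 0 in most lists of sh718, from -1.52 (F2RL1) to 1.24 (NDRG1).

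Markers of blood and endothelium, cells in which GATA2 is a master factor, summed to 21.4 to 26.8 CPM in control, 47.7 to 52.4 in sh718 and 15.4 to 32.2 in sh720. Nearly all of it was PECAM1, with 69, 138 and 59 summed counts in control, sh718 and sh720. PTPRC, CD34, TEK and SPI1 had at most 4 counts in any line. The higher sum in sh718 stood beside a lower GATA2 level, and its part in the GATA2 result was not tested.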

How the data were processed

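The authors deposited a table of unnormalized read counts by Ensembl identifier for 9 libraries of 75 bp single reads (3 lines, 3 libraries each). The submitters' processing notes name Trim Galore and GRCh38, while aligner, counter, strand setting and annotation are not stated in the sources used here. Library totals ran from 883663 to 1108960 counts. Differences were fitted across all genes by edgeR 4.0.16 under R 4.3.3 (TMM, glmQLFit, glmQLFTest, all 3 lines in 1 fit, Benjamini-Hochberg adjustment over all tested genes, threshold 0.05). The 9556 tested genes had counts that, summed per line, averaged at least 20. CPM uses TMM-scaled library sizes. Positions and exon lengths are from GENCODE release 29, in which 21258 identifiers were found, and promoters from RefSeq. Ratios of summed counts carry exact conditional 95% intervals.

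The members and lists were chosen with earlier results of these data known. Named genes are the members, CTHRC1, the 5 genes most and 3 least like GATA2, called neighbours, and per list at most 3 called genes per direction (those called in both lines first, by the 95% bound nearest 0) plus the 2 most counted. Alternatives were DESeq2 1.42.0, RLE and upper-quartile scaling, no or a higher count minimum, 2 lines only, a block by library number, and leaving out each library. No pair of libraries held identical counts. Genes without a row in the table were not analysed here. Some genes of the lists are not reported here.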

Additional observations from a re-analysis of the deposited data

Results flagged for a closer look

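FOXA1 lay below all control libraries in every sh718 library and above them in every sh720 library, with a log2 difference of -0.93 between sh718 and sh720. The gene was chosen with these differences known, so this is a description with no p-value. SOX7 rose in sh718 and fell in sh720 against control, and differed between the hairpin lines by 1.70 on the log2 scale (SE 0.17, edgeR adjusted p 2.84e-12, every sh718 library above every sh720 library). CLDN4 likewise rose in sh718 and fell in sh720, with a difference of 0.69 (SE 0.10, edgeR adjusted p 6.4e-08, again with no overlap of libraries). The opposite calls against control were less secure. The SOX7 call in sh720 was missed in 4 of 16 alternatives, the CLDN4 call in sh718 in 5 of 16 and the CLDN4 call in sh720 in 2 of 16, with the direction kept in each.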

How the results depend on the processing

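DESeq2 called fewer genes: 885 in sh718 against control, 291 in sh720 against control and 1155 between the hairpin lines, against 1947, 655 and 2419 by edgeR. Of the calls of named list genes, it missed ABCC4, SERPINB5, SPINT1, MED14 and NDRG1 in sh718 (adjusted p 0.0578 to 0.165). It also missed CENPN, CLDN4, KLF4, LDB1, LMO4, NR2F6, SOX12 and ZEB1 in sh718, and ETV1, ETV5, GLIS3 and SOX7 in sh720. Without 1 library the edgeR counts ran from 1506 to 1916, 466 to 706 and 1924 to 2406. Members past the threshold numbered 3 in sh718 under each omission and 0 in sh720, and 3 to 4 between the lines. With no count minimum 5 members passed between the hairpin lines, beside 2234 genes in all. With a minimum of 100 counts GATA2 left the test. The members were chosen with these differences known, so the member counts and changes given here are a description. The GATA2 change in sh720 turned to -0.036 without sh720 library 2, within a range of -0.036 to 0.51 over its alternatives. The SOX9 call between the hairpin lines was missed without sh720 library 2 and by DESeq2. Of 189 alternative values of member changes, 186 kept direction and side of the threshold. Of 352 alternative list counts, 56 moved by more than 1.5 times. With the prior count of 0.5, 1 of the 5 genes most like GATA2 remained. Deviations from the line means had correlations of -0.01 to 0.02 between same-numbered libraries of different lines and of -0.04 to 0.04 between differently numbered ones. Of 9 libraries, 2 correlated best with their own number. Counting error weighs on such correlations at these depths, so they cannot decide whether library numbers mark a shared batch. With the library number as a replicate block, edgeR called 1977, 680 and 2425 genes, and 3, 0 and 4 members. At these depths, GATA3, TMPRSS2 and GRHL2 are limited by counting error.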
